A study of Sus scrofa with 12 samples.

Results

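The hatching change of a blastocyst is its expression in the hatched stage (HB) minus its expression in the expanded stage (XB), and the question here was for which genes that change differed between embryos of different origin. The measure was the hatching change of parthenogenetic (PA) embryos minus the hatching change of in vivo-derived (IVV) embryos, computed for each of 24908 probes from all 12 arrays of the series. Of these probes, 10735 carry 1 gene symbol and stand for 7754 genes. With the full set of arrays the difference passed the test for 2 probes, both positive (0.00803% of probes called in either direction, 0.00803% up and 0% down), and for 1 named gene, IL6 (0.0129% of genes).

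PA HB and PA XB were porcine embryos from oocytes matured in vitro, activated with calcium ionomycin followed by DMAP, and cultured in vitro. IVV HB and IVV XB were collected from inseminated gilts. Each of the 4 groups had 3 pools of 5 embryos, whose RNA (Cy5) was hybridized on the EMPV1 array against 1 reference RNA pool (Cy3) made from stages between the GV oocyte and the day 11 HB. The IVV HB pools are labelled 5.5 dpi, and the IVV XB pools 5 dpi in replicates 1 and 2 but 6 dpi in replicate 3. The PA HB pools are labelled 7 and the PA XB pools 5 or 6, with the unit given as hours. All values below are log2 ratios of sample to reference, so that 1 unit is a 2-fold difference and 0 is the level of the reference pool, which itself contained XB and HB. Because the RNA came from whole embryos, fewer cells of a type and less RNA per cell cannot be told apart.

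A mammalian blastocyst has an outer epithelium, the trophectoderm, around a fluid-filled cavity and an inner cell mass. The cavity expands, the embryo thins and opens the zona pellucida with the help of proteases, and it leaves the zona as a hatched blastocyst whose trophectoderm will contact the uterus. Parthenogenetic embryos have maternal chromosomes only, which disturbs imprinted genes, and in culture they lack the oviduct and uterus. IL6 is a cytokine of the inflammatory and immune response that early embryos and the uterus also produce.

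Of the 10 blastocyst markers looked at, 7 had a named probe (CDX2, GATA2, TEAD4, KRT8, KRT18, KRT19 and POU5F1), with group means between -1.35 and 2.23. The median absolute deviation of the values within an array averaged 0.655 in PA HB, 0.642 in PA XB, 0.427 in IVV HB and 0.429 in IVV XB. One pool stood apart from its group. IVV XB replicate 3, the pool labelled 6 dpi, correlated at r = 0.829 with the mean of the other IVV XB pools and at 0.904 with the mean of IVV HB, over probes that are not independent of each other. For IVV XB replicates 1 and 2 the order was the other way, with 0.894 and 0.892 for the other IVV XB pools and 0.807 and 0.81 for IVV HB. Its collection label, its place among the arrays and the pool itself cannot be told apart, so results are given with all 12 arrays and, where they depend on that pool, also without it. Nothing in the labels says that same-group pools came from separate litters or cultures, so p-values measure the spread between these pools.

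IL6 was on the 3 PA HB arrays at 0.33, 0.23 and 0.06 and on the 3 PA XB arrays at 0.80, 0.93 and 0.29. On the IVV HB arrays it was at -0.53, -1.21 and -1.43, against 1.98, 2.11 and 2.13 on the IVV XB arrays. The 3 IVV XB pools were thus close together and above all others, the 3 IVV HB pools were below all others, and the PA groups lay between and overlapped each other. IL6 fell by 3.13 with hatching in IVV embryos (limma, B-H adjusted p = 0.000107), while the PA change was -0.47 (adjusted p = 0.823). The difference between these changes was 2.66 ± 0.34 (SE) with an adjusted p of 0.0254. PA XB lay at a position of 0.448 on a scale on which 0 is the IVV XB mean and 1 the IVV HB mean, so that IL6 in PA embryos stood near the middle of the IVV range both before and after hatching. IL6 had 1 probe. Its call was lost with the replicate number as a block within each origin (adjusted p = 0.0510) and when any array other than IVV HB replicate 1 or IVV XB replicate 3 was left out (adjusted p 0.0538 to 0.143), with the difference between 2.47 and 3.76 over all settings.

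The other probe that passed has no gene symbol and is given as probe 42108. It was at 3.22, 3.72 and 3.37 in PA HB and at -0.41, 0.00 and 0.95 in PA XB. In IVV HB it was at -3.56, -2.88 and -2.94, and in IVV XB at -2.96, -3.19 and -2.81. All PA pools were above all IVV pools at both stages, PA HB stood above PA XB without overlap, and the IVV groups overlapped. It rose by 3.25 with hatching in PA embryos (limma adjusted p = 0.00136), against a change of -0.13 in IVV embryos, and the difference was 3.39 ± 0.43 (SE, adjusted p = 0.0254). The call did not hold with the arrays scaled to the same spread (2.81, adjusted p = 0.248), with quantile normalization (2.50, adjusted p = 0.153), with the block within each origin (adjusted p = 0.0510), or without any 1 array other than PA XB replicate 3 or IVV XB replicate 3. With scaled arrays its rise in PA embryos was not called (2.60, adjusted p = 0.0805).

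**Figure D1:**
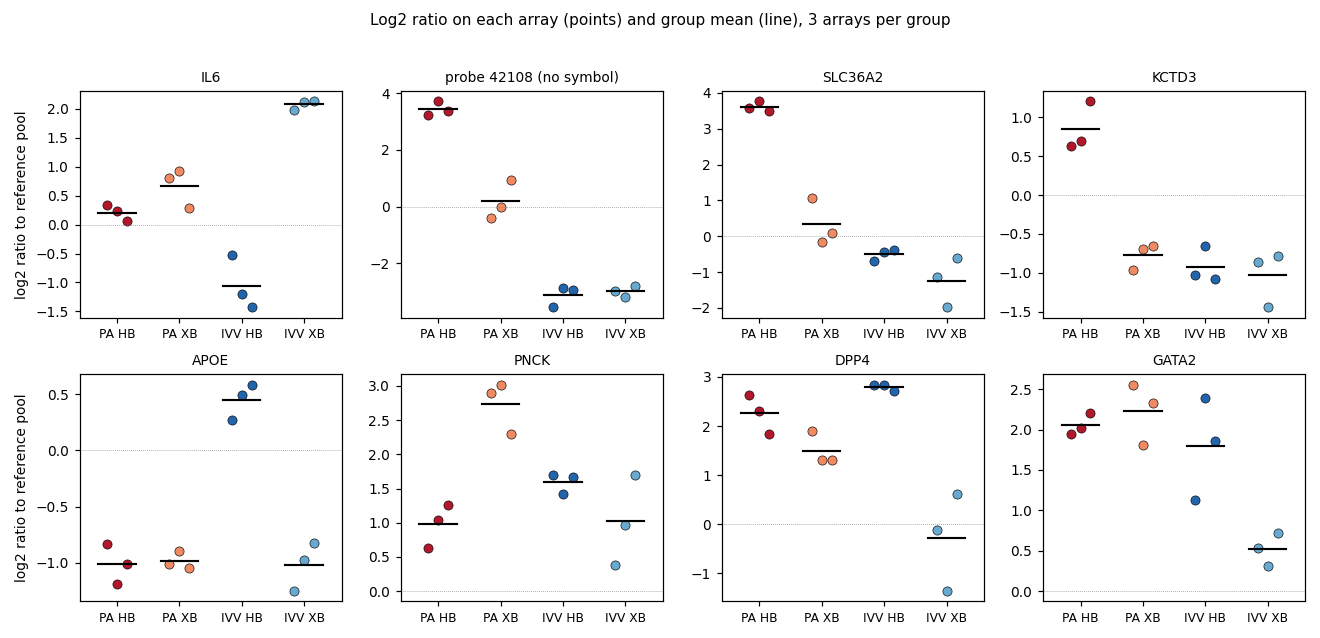
Log2 ratio to the reference pool (vertical axis) on each of the 12 arrays for 8 probes, with PA HB, PA XB, IVV HB and IVV XB from left to right, points for arrays and lines for group means. IL6 separates the IVV stages and hardly the PA stages, probe 42108, SLC36A2 and KCTD3 stand apart in PA HB, APOE stands apart in IVV HB, and GATA2 is lowest in IVV XB.

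Just outside the limit were probe 42928, without a symbol, at a difference of -2.13 (limma adjusted p = 0.176), probe 34222, also without a symbol, at -2.70 (0.254), and APOE at -1.49 (0.254). An unadjusted p of at most 0.05 was reached by 1227 probes (4.93%), 621 with a positive (2.49%) and 606 with a negative difference (2.43%). A smaller set of 194 probes (0.779%) had an unadjusted p of at most 0.01 and a difference of at least 2-fold, 90 positive (0.361%) and 104 negative (0.418%), for 95 named genes, and it is used here only as a description. In 64 of these probes the change reached 2-fold in IVV embryos alone, 51 with PA XB nearer to IVV HB and 13 with PA XB nearer to IVV XB. In 38 probes it reached 2-fold in PA embryos alone, in 3 in both with opposite signs, and in 89 in neither. The group whose mean lay farthest from the mean of the other groups was IVV XB for 89 of the 194 probes (45.9%, against 31.7% of all probes), PA XB for 46, PA HB for 31 and IVV HB for 28.

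**Figure D2:**
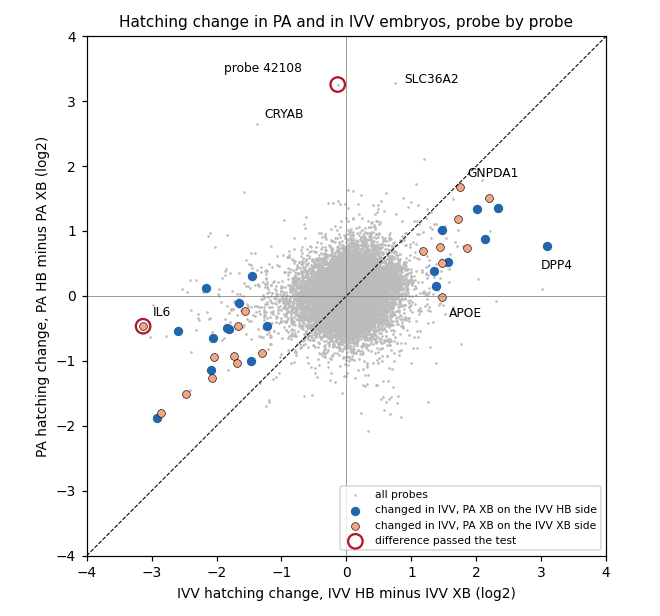
Hatching change in PA embryos (vertical axis, log2) against that in IVV embryos (horizontal axis, log2) for all 24908 probes, with the line of equal change dashed. The 2 circled probes passed the test of the difference, and the 37 coloured probes changed in IVV embryos, blue where PA XB was nearer to IVV HB and orange where it was nearer to IVV XB.

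Among genes with a positive difference that did not pass were SLC36A2, KCTD3 and CRYAB, in each of which PA HB lay above PA XB without overlap. SLC36A2, a proton-coupled transporter of glycine, proline and other small amino acids, was at 3.59, 3.77 and 3.49 in PA HB and at 1.07, -0.17 and 0.09 in PA XB. In IVV HB it was at -0.70, -0.44 and -0.37, against -1.14, -1.99 and -0.61 in IVV XB. PA HB was above every other array, and the 2 IVV groups overlapped. SLC36A2 was the only named gene called in the hatching change of PA embryos without pairing (2 probes called, 0.00803%, the other being probe 42108, and 0.0129% of genes), with a rise of 3.29 and a limma adjusted p of 0.0022, while its difference from the IVV change was 2.54 ± 0.48 (SE, adjusted p = 0.300). With the PA pools paired by replicate number, 13 probes were called in the PA change (11 up and 2 down). The call of SLC36A2 in PA embryos was lost with scaled arrays and with quantile normalization (adjusted p up to 0.207). KCTD3, a potassium channel tetramerization domain protein, was at 0.64, 0.69 and 1.21 in PA HB, and all 9 other arrays lay between -1.45 and -0.66 (difference 1.51, adjusted p = 0.474). CRYAB, a small heat shock protein, was at 2.79, 0.78 and 2.13 in PA HB and at -0.01, -1.18 and -1.06 in PA XB. In IVV HB it was at -0.84, -0.68 and 0.66, and in IVV XB at 2.46, 1.62 and -0.80, the last being the pool labelled 6 dpi. The CRYAB difference was the largest of the named genes with all arrays, at 4.03, with a large error (1.01 SE, adjusted p = 0.679).

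Genes with a negative difference that did not pass included several with a higher mean in IVV HB than in IVV XB but not in PA HB than in PA XB. APOE, an apolipoprotein that carries lipid between cells, was at -0.83, -1.18 and -1.01 in PA HB and at -1.01, -0.90 and -1.04 in PA XB. It was at 0.27, 0.49 and 0.58 in IVV HB, against -1.25, -0.97 and -0.82 in IVV XB. The 3 IVV HB pools stood alone, and the other 9 arrays overlapped. APOE rose by 1.46 in IVV embryos (limma adjusted p = 0.00603), with a PA change of -0.02, and the difference was -1.49 ± 0.26 (SE). A further APOE probe showed a difference of -0.29, and the mean of both probes was not called in IVV embryos (0.75, adjusted p = 0.161). PAPSS2, which makes the sulfate donor for sulfation (difference -2.51), and PRDX1, a peroxide-removing enzyme (-1.89), shared this rise of the mean in IVV embryos alone. So did FLRT3, an adhesion protein (-1.73), and FN1, the matrix protein fibronectin (-1.67). In FLRT3 and FN1 PA XB lay nearer to IVV HB (positions 0.732 and 0.934), unlike in PAPSS2 (0.242) and PRDX1 (0.216). The limma adjusted p of these genes lay between 0.595 and 0.647. The other FN1 probe had a difference of 0.07.

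DPP4, a serine peptidase of the cell surface, was at 2.64, 2.31 and 1.84 in PA HB and at 1.89, 1.30 and 1.31 in PA XB. In IVV HB it was at 2.84, 2.83 and 2.72, against -0.12, -1.36 and 0.61 in IVV XB. All PA pools were above all IVV XB pools, and PA XB was below IVV HB without overlap. The change was 3.09 in IVV embryos (limma adjusted p = 0.00603) and 0.76 in PA embryos (adjusted p = 0.817), and the difference was -2.32 ± 0.54 (SE, adjusted p = 0.586). The other DPP4 probe had a difference of -0.34. GATA2, a transcription factor of the trophectoderm, was at 1.94, 2.02 and 2.20 in PA HB and at 2.56, 1.80 and 2.33 in PA XB. It was at 1.13, 2.39 and 1.86 in IVV HB, against 0.53, 0.32 and 0.73 in IVV XB, so that PA XB overlapped both hatched groups and lay above IVV XB (difference -1.44, adjusted p = 0.801). KRT8, a keratin of simple epithelia, had means of 1.47 in PA HB, 1.42 in PA XB, 0.24 in IVV HB and -0.71 in IVV XB, and its partner KRT18 -0.80, -0.47, 0.93 and 0.14 in the same groups. Their differences were -0.89 and -1.12, with adjusted p of 0.988 and 0.994.

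Another pattern was a group mean that was highest in PA XB. PNCK, a calcium/calmodulin-dependent kinase, was at 0.64, 1.04 and 1.26 in PA HB and at 2.89, 3.02 and 2.29 in PA XB. In IVV HB it was at 1.70, 1.42 and 1.67, against 0.39, 0.97 and 1.70 in IVV XB, and PA XB was above every other array (difference -2.34 ± 0.43 SE, limma adjusted p = 0.281). COPS7A, a subunit of the COP9 signalosome (-2.23), RCL1, an 18S rRNA processing factor (-1.82), EPHB2, an ephrin receptor kinase (-1.83), and ARIH1, a ubiquitin ligase (-1.28), also had their highest group mean in PA XB. For COPS7A and EPHB2, however, the PA XB values overlapped those of IVV HB. For CSNK2B, the regulatory subunit of casein kinase 2, the 3 probes gave differences of -1.32, -1.42 and -0.89, whereas other probes gave smaller values, -0.02 to 0.34 for COPS7A and -0.17 and -0.12 for RCL1. For KCTD3 the other probes gave -0.18 and 0.25.

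For a second view, the genes that changed with hatching in IVV embryos were taken, and the position of PA XB between the IVV XB and IVV HB means was read for each. In IVV embryos 37 probes changed (0.149%), 16 up (0.0642%) and 21 down (0.0843%), for 16 named genes (0.206%). Scaling the arrays to the same spread called 131 probes, 74 up and 57 down. PA XB lay on the IVV HB side of the midpoint for 19 of the 37 (51.4%), and 17 of these were within 1 log2 unit of IVV HB. The share was 59% over all probes and 67.9% over the 380 probes with an IVV change of at least 2-fold, so 51.4% is no higher than the background. These shares use the IVV arrays that chose the probes and were not tested. The PA means did not enter the IVV change, but the PA arrays entered the estimate of spread behind its adjusted p. The PA change had the sign of the IVV change in 34 of the 37 probes and exceeded it in 0, with a median of 0.76 in the IVV direction against 1.76 for the IVV change itself. Since the probes were chosen for a large IVV change, a smaller PA change can follow from the choice alone. The matching share of signs over all probes is not given.

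Named genes already on the hatched side in PA XB were of several kinds. NPC1, which exports cholesterol from lysosomes, had means of 2.41 in PA HB, 1.08 in PA XB, 1.48 in IVV HB and -0.53 in IVV XB. It rose by 2.01 in IVV embryos (limma adjusted p = 0.0412), and PA XB differed from IVV HB by -0.40 with a 95% interval of -1.12 to 0.33. ACP6, a lysophosphatidic acid phosphatase, had a position of 1.09, and GAPDH, the glycolytic enzyme, of 1.28, with GAPDH means of 0.61 in PA HB, -0.41 in PA XB, -0.82 in IVV HB and -2.29 in IVV XB. Of the genes that fell in IVV embryos, SFT2D2, a vesicle trafficking protein, differed by -0.06 between PA XB and IVV HB (interval -0.62 to 0.49). MAP1LC3B, a marker of the autophagosome membrane, had means of -2.50 in PA HB, -2.39 in PA XB, -2.84 in IVV HB and -1.18 in IVV XB. EIF2AK4, the kinase that senses lack of amino acids, had means of -1.89, -1.40, -2.09 and -0.25 in the same order. Other probes showed smaller IVV changes, -0.05 and -0.36 for MAP1LC3B and 0.08 for ACP6. ATP6V0D2, a subunit of the vacuolar proton pump, was at a position of 0.66. DPP4 was also on the hatched side, at 0.58, but PA XB remained below IVV HB by 1.30 (difference -1.30, interval -2.12 to -0.47). In 6 of the 19 probes on this side the PA change was at least 0.5 of the IVV change, and in 13 it was smaller. NPC1 (PA change 1.33), GAPDH (1.02), ATP6V0D2 (-1.14) and SFT2D2 were among the 6. Of 22 other settings, the IVV call was lost in 1 for DPP4, 2 for ATP6V0D2, 3 for EIF2AK4, 5 for MAP1LC3B, 8 for NPC1, 9 for GAPDH and 10 each for ACP6 and SFT2D2.

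Genes on the expanded side in PA XB had a PA change of the same sign as the IVV change, except APOE. GNPDA1, which turns glucosamine 6-phosphate into fructose 6-phosphate, had means of 0.56 in PA HB, -1.13 in PA XB, 0.91 in IVV HB and -0.85 in IVV XB. Its changes were 1.68 in PA embryos (limma adjusted p = 0.0781) and 1.76 in IVV embryos (adjusted p = 0.0188), with a difference of -0.07. STS, steroid sulfatase, and HSP90AA1, a heat shock chaperone, had PA changes of 0.69 and 0.51, against 1.17 and 1.47 in IVV embryos. APOE and IL6 were on this side too, with PA changes near 0 or small. In 4 of the 37 probes both PA stages stayed on the expanded side.

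**Figure D3:**
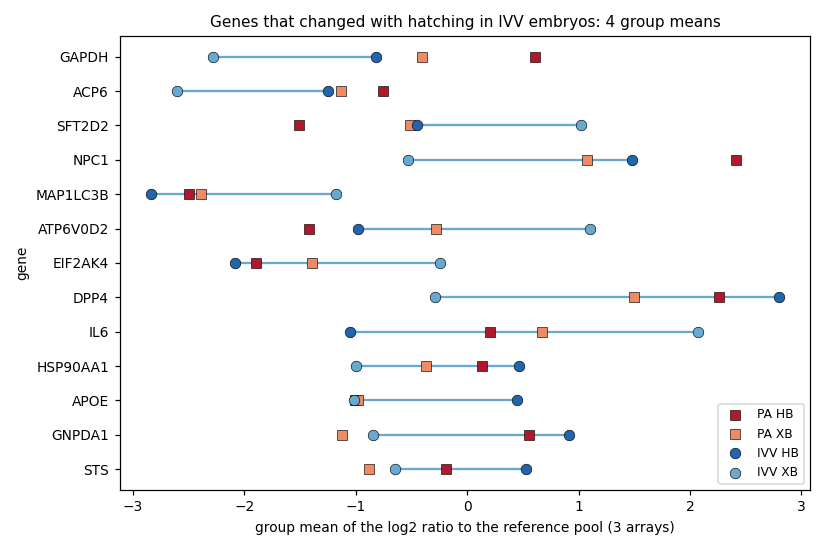
Group means of the log2 ratio (horizontal axis, 3 arrays each) for 13 genes that changed with hatching in IVV embryos, PA as squares and IVV as circles, with a line joining the IVV stages. In the upper 8 genes the PA XB square lies past the midpoint of the line towards IVV HB, and in the lower 5 it does not.

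Leaving out IVV XB replicate 3 changed the result more than leaving out any other array. The 2 IVV XB pools labelled 5 dpi were then compared with the same 9 other pools, and 71 probes passed the test of the difference (0.285%), 59 with a positive (0.237%) and 12 with a negative difference (0.0482%). With the same arrays scaled to the same spread the count was 186 (154 positive and 32 negative), and with quantile normalization 266 (222 positive and 44 negative). The 71 probes stand for 35 named genes and 36 probes without a symbol, and include both calls made with all arrays. All 71 had the same sign with the full set of arrays, where 59 had an unadjusted p of at most 0.05. All 59 positive ones had a negative IVV hatching change, and all 12 negative ones a positive IVV change. The IVV change was at least 2-fold in 63 of the 71, and in 57 of these the PA change was under 2-fold. In 54 probes the pools labelled 5 dpi were above all 10 other arrays and in 4 below them, including the left-out pool. A separation of this kind was found in 12.3% of all probes. In 60 of the 63 PA XB lay on the IVV HB side, against 81% of the 738 probes with an IVV change of at least 2-fold. The left-out pool did so in 58 of the 63. Its share was 58.9% over all probes, most of which had a smaller IVV change. For that pool the share over the 738 probes was not computed, so its count has no matched background. PA XB entered the test that chose these probes, so its count is partly set by the choice. The pool left out was the IVV XB pool nearest to IVV HB, and without it the spread within IVV XB rests on 2 pools. Adjusted p from this fit, here and below, can therefore be too small. The genes named below were chosen after their values were seen.

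CYP26A1, which breaks down retinoic acid, had a large difference, 4.65 ± 0.44 (SE, limma adjusted p = 0.000874), though with all arrays its difference was 2.85 (adjusted p = 0.999). It was at -2.45, -1.63 and -1.39 in PA HB, at -1.80, -1.59 and -1.70 in PA XB and at -2.43, -1.57 and -1.79 in IVV HB. IVV XB replicate 3 was at -2.55, against 3.11 and 2.60 in replicates 1 and 2, so that a single pair of pools stood above 10 low ones. HSD17B2, which inactivates oestradiol and testosterone, was between -0.82 and -0.23 on those 10 arrays, against 2.30 and 2.17 in the pair (difference 2.51, adjusted p = 0.0016). HPGD, which inactivates prostaglandins, was between -0.57 and 0.43 on the 10, against 3.52 and 2.11 in the pair (difference 2.81). A further HPGD probe had a difference of 2.35 (adjusted p = 0.137), while the other HSD17B2 probe had -0.07. PGRMC1, a haem-binding membrane protein linked to progesterone (2.25), was also called. So was CYP51, an enzyme of cholesterol synthesis (1.81), which was at -3.70 in IVV XB replicate 3, below every other array, and whose difference with all arrays was 0.27. With all arrays the difference was 1.57 for HSD17B2 and 2.01 for HPGD, and neither was called.

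Several other kinds of gene had the same shape. LGALS3, the galactoside-binding lectin galectin 3, was at -1.43, -1.82 and -1.54 in PA HB and at -2.48, -2.59 and -2.50 in PA XB. It was at -2.89, -1.99 and -1.59 in IVV HB and -2.95 in IVV XB replicate 3, against 2.11 and 0.76 in the pair (difference 4.52, limma adjusted p = 0.00257). SLA-3, a class I histocompatibility molecule (3.14), CCL28, a chemokine of mucosal surfaces (2.96), RXFP1, a relaxin receptor (2.86), and HDC, which makes histamine (2.38), had positive differences as well. Enzymes of lipid use were SCD5, a stearoyl-CoA desaturase (3.69), DECR2, a peroxisomal dienoyl-CoA reductase (3.00), and ME3, a mitochondrial malic enzyme (1.93). SLC5A1, the sodium-glucose transporter SGLT1, was between -0.44 and 0.18 on the 10 arrays, against 2.46 and 2.08 in the pair (2.15). CP, the copper-carrying ferroxidase ceruloplasmin, was between -1.23 and -0.14 on the 10, against 3.18 and 2.26 in the pair (2.97). SAT1, which acetylates polyamines, had a difference of 3.88, and CTSV, a lysosomal cysteine protease, of 1.80. With all arrays the difference was 3.06 for LGALS3, 2.01 for SLA-3, 1.30 for SLC5A1, 1.89 for CP and 2.51 for SAT1, and none of these was called.

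**Figure D4:**
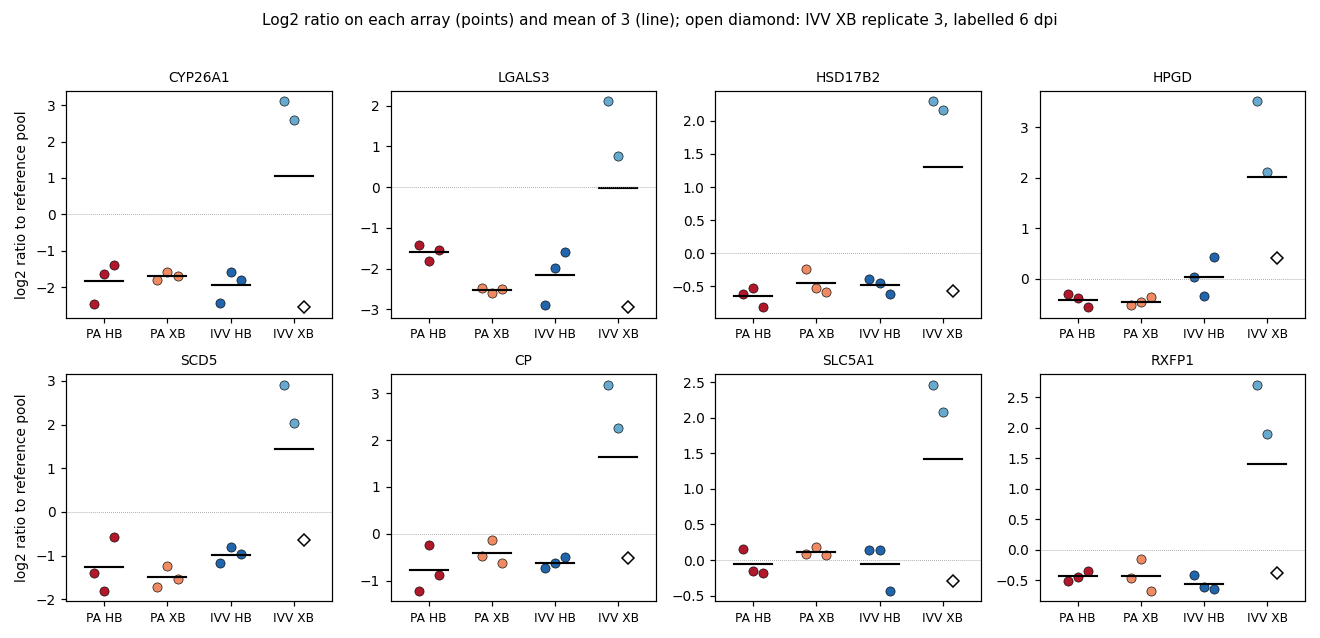
Log2 ratio to the reference pool (vertical axis) on each array for 8 genes called without IVV XB replicate 3, which is drawn as an open diamond, with lines for the mean of all 3 arrays of a group. In each panel IVV XB replicates 1 and 2 lie above the other 10 arrays, among which the diamond falls.

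IL6 differed from these genes in that IVV XB replicate 3, at 2.13, was next to the pools labelled 5 dpi, and its difference without that pool was 2.64. Likewise APOE at -0.82 was close to the other IVV XB pools (difference -1.58, limma adjusted p = 0.032). DPP4 was called at -2.77 (adjusted p = 0.0266) and PNCK at -2.68 (0.00909). ARRB1, an arrestin that uncouples receptors from G proteins, was at 0.64 and 0.51 in the pair and between 1.72 and 2.87 on the other 10 arrays (difference -2.04, adjusted p = 0.0131). In CRYAB and GPX1, a glutathione peroxidase, the changes of the 2 origins had opposite signs, as in other called genes such as PNCK and EPHB2. For CRYAB and GPX1 neither change was itself called (limma adjusted p 0.0938 to 0.479). The PA change was 2.65 for CRYAB and 1.22 for GPX1, and the IVV change -2.33 for CRYAB and -1.53 for GPX1, with differences of 4.97 and 2.75. Of 18 further probes for the called genes, 0 were called by limma, 13 had the same sign, and 2 (for HPGD and ATP9A) had an unadjusted p of at most 0.05.

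The count of genes that changed with hatching in IVV embryos also grew without that pool, to 271 probes (1.09%), 55 up (0.221%) and 216 down (0.867%), and included all 37 found with the full set. With the arrays scaled to the same spread it was 662, 216 up and 446 down. In PA embryos 7 probes were called (0.0281%). PA XB lay on the IVV HB side for 222 of the 271 probes (81.9%), and 210 of these were within 1 log2 unit of IVV HB. The share was 63.6% over all probes and 81% over the 738 probes with an IVV change of at least 2-fold, so it is again close to that of probes with such a change. The median PA change in the IVV direction was 0.13, against 1.72 in IVV embryos, and the PA change had the opposite sign in 97 of the 271 probes. Here too the choice of probes by their IVV change can by itself make the PA change the smaller one.

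The same 271 probes placed each array between the pools labelled 5 dpi (0) and IVV HB (1). The median positions were 0.985, 0.983 and 0.969 in PA HB, 0.947, 0.876 and 0.924 in PA XB, and 0.859 in IVV XB replicate 3. All 6 PA pools and the IVV XB pool labelled 6 dpi thus lay near IVV HB. Their values did not enter the IVV change, but the PA arrays entered the estimate of spread that helped to choose the probes. The pool left out was the IVV XB pool nearest to IVV HB, so its position is partly set by that choice. The left-out pool was on the IVV HB side for 202 probes (74.5%). Its share over all probes was 58.9%, but most of those had a smaller IVV change, so this is not a matched background. These positions have no test, since the values at 0 and 1 were chosen to be far apart.

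**Figure D5:**
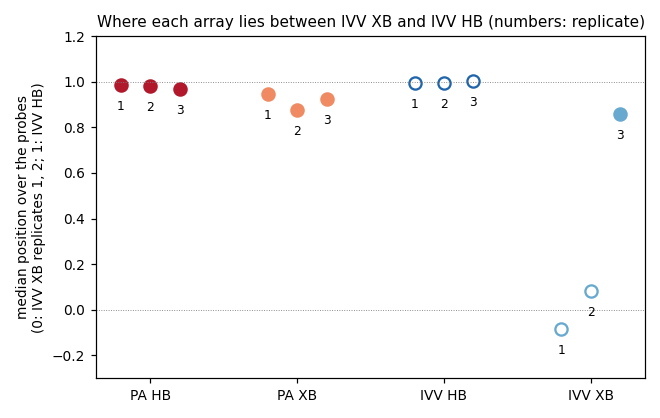
Median position of each array over 271 probes (vertical axis, no unit, 0 for IVV XB replicates 1 and 2 and 1 for IVV HB). Open symbols mark arrays whose means gave the IVV change that chose the probes, and numbers mark replicates. The PA arrays lie between 0.876 and 0.985 and IVV XB replicate 3 at 0.859.

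Some of these genes are also known from the uterine lining, which touches IVV embryos only, so markers of other cell types were read. Of 14 markers of endometrial epithelium 4 had a named probe (ESR1, PAEP, LTF and UPK1B). Their means lay between -0.21 and 0.34 in IVV HB, their values between -0.20 and 0.29 in IVV XB replicate 3, and their means between -0.18 and 0.11 in the pools labelled 5 dpi. In 0 of the 4 were these pools above or below all the others. Markers of blood cells (7 measured), fibroblasts (5), cumulus cells (11) and sperm (2) had medians between -0.30 and 0.08 in the pools labelled 5 dpi, and none was called. In 1 of the 7 blood and 1 of the 5 fibroblast markers these pools were above all other arrays, and in 2 of the 11 cumulus markers below them. Over all probes the share above or below was 12.3%, and with so few markers the counts of any cell type cannot be told from it. The part of such cells in the result was not tested. The 10 endometrial markers without a named probe could not be read.

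By function, the lists of genes gave few calls with all arrays. IL6 was 1 of 15 cytokines, receptors and immediate early genes, and no other list had a called member in either direction. At an unadjusted p of at most 0.05, which 6.16% of 7754 named genes reached (2.95% positive and 3.21% negative), the counts were 6 of 23 genes of autophagy and nutrient stress (MAP1LC3B, EIF2AK4, ULK1 and ATG3 positive, MKNK1 and ASNS negative), 3 of 12 primitive endoderm genes (APOE, FN1 and COL4A1, all negative), 4 of 16 steroid, prostaglandin and oestrogen enzymes (HPGD positive, PTGES3, HSD17B10 and PTGES negative) and 4 of 16 trophectoderm transcription factors and Hippo partners (ELF5 and SPIC positive, GATA2 and PPARG negative). These were the highest shares among the lists by function, and the lowest was 0 of 29 for cell cycle and mitosis genes. The shares of the other lists by function lay between 3.7% and 17.6%. Other probes of the primitive endoderm genes gave differences of -0.29 for APOE, 0.07 for FN1 and -0.14 for COL4A1. The median difference was -0.41 for the primitive endoderm genes, -0.34 for oocyte and maternal transcripts and 0.28 for conceptus genes of implantation, against -0.03 for all named genes. Markers of blood and immune cells had a median of 0.39 (6 of 7 positive) and of fibroblasts 0.31 (5 of 5 positive), and the part of such cells was not tested. AIF1 is in both the conceptus and the blood list. For LGMN, the lysosomal protease legumain, the hatching changes of 1.29 in PA embryos and 1.30 in IVV embryos were nearly equal, and the difference was -0.01 with a limma adjusted p of 0.999. The Notch ligand JAG1 had a difference of 1.25 (adjusted p = 0.999) on the probe given and of 0.01 and -0.05 on its other probes, and the Notch target HEY2 one of -0.26.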

How the data were processed

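RNA of 12 pools of 5 porcine embryos was measured on 2-colour EMPV1 arrays. The deposited values are log2 ratios (sample to reference), which the authors made in FlexArray (background subtracted, then loess within each array). They were used as deposited, without further normalization. Array medians lay between -0.095 and -0.016. Symbols came from the platform's probe table: 10735 of 24908 probes have 1 symbol. Of 2849 accessions 1616 matched a RefSeq transcript, which renamed 75 probes, and synonyms renamed 125.

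As in the methods, limma was used (3.58.1, under R 4.3.3 with the package data.table, version 1.17.8). One mean per group was fitted over the 12 arrays, with 8 residual and 5.64 prior degrees of freedom. Calls needed a B-H adjusted p of at most 0.05 over all probes together with a 2-fold change. Any called probe made its gene a called gene. The precision is limited by 3 arrays per group. The method was tested on simulated data with noise independent between pools, whereas same-numbered PA pools deviated together. The outcome is not used here as support for any call.

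Where another probe is not named, a gene is given by the probe whose moderated F test over the groups had the lowest p. Named were called genes, then up to 12 positive and 12 negative differences of at least 2-fold with the lowest unadjusted p, genes that changed in IVV embryos by position of PA XB, genes the study discusses, and the leading genes of each list. Not all are described. Members and lists were chosen with earlier results of these data known. Genes of the fit without IVV XB replicate 3 and the block in PA arrays alone were chosen after seeing the data. Tried as alternatives were scale and quantile normalization, replicate blocks, array weights, robust moderation, dropping the fold limit, keeping only the 50% of probes that varied most, averaging a gene's probes, and leaving out each array in turn.

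Same-numbered pools deviated together in PA embryos (r = 0.454, 0.321 and 0.22 between PA HB and PA XB) but not in all IVV pairs (0.025, -0.132 and 0.201). One alternative setting therefore paired PA pools only. The main fit used no pairing, so its 2 calls in the difference come from pools taken as unpaired. With the PA pairing the difference had 3 calls, 2 positive and 1 negative. Python 3.11.15 with matplotlib 3.10.9 drew the figures.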

Additional observations from a re-analysis of the deposited data

Results flagged for a closer look

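A comparison of the hatching changes gave 2 probes whose change differed between origins by the test of the difference itself. For IL6 the PA change exceeded the IVV change by 2.66, and IL6 fell in IVV embryos. For probe 42108, which has no gene symbol, it exceeded the IVV change by 3.39, and the probe rose in PA embryos.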

How the results depend on the processing

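For the difference between hatching changes, called for 2 probes, the count was 1 with scaled arrays, 1 with quantile normalization and 0 to 71 when 1 array was left out, 71 being without IVV XB replicate 3. The PA hatching change (2 probes) gave 0 with scaled arrays, 1 with quantile normalization and 2 to 7 without 1 array. The IVV hatching change (37 probes) gave 131 with scaled arrays, 125 with quantile normalization, 339 with array weights and 5 to 271 without 1 array (5 without IVV HB replicate 3, 6 without IVV XB replicate 2, 14 without IVV XB replicate 1, 67 without IVV HB replicate 1 and 271 without IVV XB replicate 3). PA XB was on the hatched side for 19 of them, and for 70 with scaled arrays, 80 with quantile normalization, 240 with array weights, 29 in the more variable 50% of probes, 11 with the boundary at 0.75 of the way from IVV XB to IVV HB, 182 of 262 at an unadjusted p of at most 0.01, and 0 to 222 without 1 array. PA XB minus IVV XB gave 3126 probes, 4863 with no limit on the fold and 2120 to 3601 without 1 array. PA HB minus IVV HB gave 2118, 1032 with quantile normalization and 649 to 2658 without 1 array. PA XB minus IVV HB gave 1774, 2764 with no limit on the fold and 646 to 2654 without 1 array.

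With the replicate number as a block the difference had 0 calls within each origin. It had 3 across all groups and 3 with the pairing in PA arrays alone, in both cases 2 positive and 1 negative. For the PA change the blocked counts were 5, 8 and 13, for the IVV change 95, 68 and 65, and for PA XB on the hatched side 58, 39 and 33. The block in PA arrays alone gave 1127 for PA HB minus IVV HB and 953 for PA XB minus IVV HB.

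Differences near 0 changed sign: PSEN2 was 0.010 with scaled arrays, and without 1 array PSEN2 ranged over -0.292 to 0.116, GNPDA1 over -0.377 to 0.119, HEY2 over -0.665 to 0.200 and LGMN over -0.150 to 0.253. The causes were not tested. Over all results and settings 2348 values kept direction and side, 102 lost the call, 10 gained it and 16 reversed. With 3 arrays per group the median SE of a difference was 0.328.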

Other observations

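Without IVV XB replicate 3, 138 named genes changed with hatching in IVV embryos, among them some that the report does not describe. NPC2, which works with NPC1 in lysosomal cholesterol export, rose by 1.53 (limma adjusted p = 0.0304), with a PA change of 0.47 and PA XB at a position of 0.58. LDHA, the lactate dehydrogenase subunit, changed by -1.76 (adjusted p = 0.00583), with a PA change of -0.24. ACSL3, which activates long-chain fatty acids, changed by -2.03 (adjusted p = 0.0109), with a PA change of -0.51. JAG1 changed by -2.06 (adjusted p = 0.00826), with a PA change of -0.02, and PA XB was at -0.06, on the expanded side. Its other 2 probes had IVV changes of -0.15 and 0.24 with all arrays. On the probe given, JAG1 was far below the reference pool on every array, at -3.73 to -4.19 on the PA arrays, -5.65 to -6.82 in IVV HB and -6.46 in IVV XB replicate 3, against -3.71 and -4.45 in the other IVV XB pools.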
